A study of Homo sapiens with 16 samples.

Results

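The genes examined here were 42 genes of mitosis and the spindle, taken from a list of names that was drawn up with earlier results of these data known, with no threshold on a measured value. All 42 were found by symbol among the 18332 genes of the table and all 42 passed the filter on low values in both cell lines. They were divided by role into 8 kinases and cyclins of mitotic entry, 5 genes of the spindle checkpoint and of the anaphase-promoting complex (APC/C), 5 centromere and kinetochore genes, 3 subunits of the chromosomal passenger complex, 8 kinesin motors, 8 spindle microtubule proteins, 2 cytokinesis genes, MKI67 and TOP2A on the chromosomes, and the transcription factor FOXM1. In a dividing cell, CDK1 with cyclin B starts mitosis, Aurora and polo-like kinases build a bipolar spindle, and kinesins and microtubule-binding proteins move the chromosomes along it. Kinetochores attach each chromosome to microtubules, the spindle checkpoint holds the APC/C inactive until all are attached, and the cell then cleaves. Most of these genes are transcribed in G2 and mitosis under FOXM1 and B-MYB, and the DREAM complex also controls them. Their summed RNA is widely used as a measure of proliferation in breast cancer.

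RNA was sequenced from MDA-MB-231 cells and from MDA-MB-468 cells, which are established lines of human breast cancer labeled negative for the estrogen receptor. The control cultures of each line were held at 5 mM glucose (low glucose) and the others at 25 mM (high glucose, the study's model of hyperglycemia), in both cases for 48 hours, with 4 replicates in each of 4 groups and 16 samples in all. The study's methods state that the media of such experiments lacked serum, that cells were first conditioned in low glucose, and that MDA-MB-231 was maintained in DMEM but MDA-MB-468 in RPMI, so that line and medium cannot be told apart. Whether mannitol was added to these control cultures to match osmolarity is not given in the sources used here. The labels do not say that replicates came from separate cultures, so the p-values measure the spread between these samples, which may be technical.

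Values are normalized read counts, that is, reads per gene divided by the authors' size factor for each library. Library depth lay between 14094597 and 24425916 reads assigned to genes. Of the 4 markers listed for MDA-MB-231, the mesenchymal genes VIM and ZEB1 were higher in that line, at 96200 and 1640 normalized reads in low glucose against 21.5 and 2.84 for MDA-MB-468. CD44 was the lower there (18000 against 25500), and SPARC was near 0 in both lines. The 6 basal and epithelial markers listed for MDA-MB-468 were all higher in it, among them CDH1 at 2010 against 5.51 and KRT5 at 15200 against 1.13. ESR1, which encodes the estrogen receptor, averaged 57.9 in MDA-MB-468 and 1.31 in the other line. Of the 2 markers of other lineages, the leukocyte gene PTPRC averaged at most 12.5 in any group and the collagen gene COL1A1 averaged 254 to 338.

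High glucose lowered the mitosis and spindle genes together in MDA-MB-231. limma called 41 of the 42 lower and 0 higher at an adjusted p under 0.05, where 9.37% of the 14884 genes tested in that line were called lower and 5.71% higher. All 42 fold changes were negative, and neither edgeR nor DESeq2 called any member higher. The median log2 fold change was -0.48, so that the median member fell by 28.2%, against a log2 fold change of 0.002 over all genes tested. The members moved by similar amounts: the quartiles of the log2 fold change were -0.51 and -0.42, with extremes of -0.64 (KIF15) and -0.20 (ECT2). In 41 members the 4 high-glucose values lay below the 4 low-glucose values without overlap, a pattern that 11.1% of tested genes showed in that direction. HMMR was the member not called, with a log2 fold change of -0.25 (adjusted p = 0.227) at a low level. In bulk samples, fewer dividing cells and less of these RNAs per cell cannot be told apart.

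In MDA-MB-468 the same genes did not move together. Of the 42, limma called 14 higher and 7 lower, and 21 did not pass the threshold, where 24.9% of the 15757 genes tested were called higher and 22.7% lower. Members called in either direction made up a share close to that of all genes. The median log2 fold change was 0.03, while the extremes were wide, from -0.70 (HMMR) to 0.83 (BIRC5). The groups did not overlap in 14 members that were higher (22.2% of tested genes) and in 7 that were lower (20.4%), and overlapped in 21. These were not all the same members as those called: CCNB2 and KIF20A did not overlap but were not called, and MELK and MKI67 were called but overlapped. The spread of the members' log2 fold changes was 0.27 (SD over 42 members) in MDA-MB-468 and 0.10 in MDA-MB-231.

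**Figure D1:**
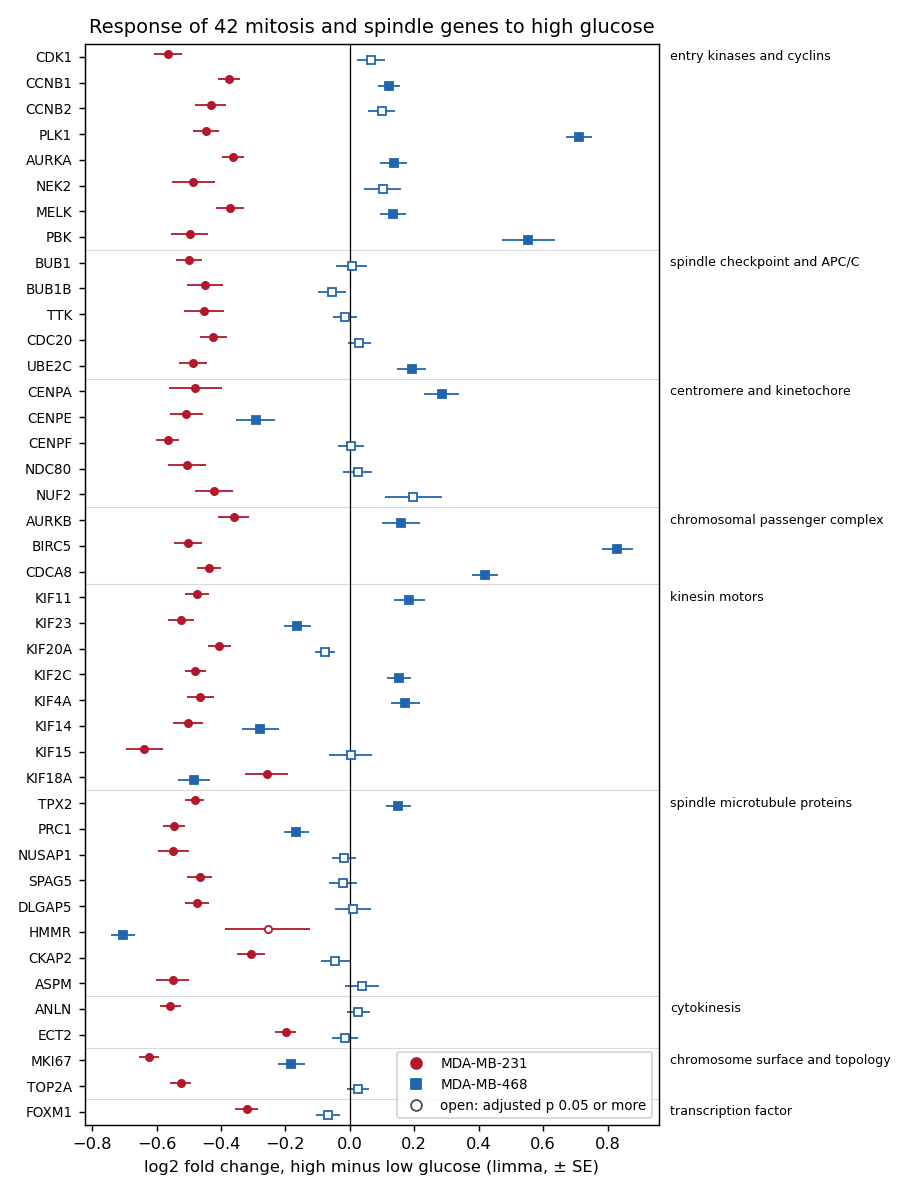
Log2 fold change of each member, high minus low glucose (horizontal axis), with its SE from limma, for MDA-MB-231 (red circles) and MDA-MB-468 (blue squares), ordered by role; open symbols did not pass an adjusted p of 0.05. In MDA-MB-231 the 42 points lie between -0.64 and -0.20, and in MDA-MB-468 they lie on both sides of 0, from -0.70 for HMMR to 0.83 for BIRC5.

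The summed reads of the 42 genes showed the same contrast between the lines. In low-glucose MDA-MB-231 the 4 libraries gave 0.463%, 0.474%, 0.464% and 0.485% of their reads to these genes, a mean of 0.472% ± 0.0103 (SD, n = 4). In high glucose the libraries of that line gave 0.342%, 0.348%, 0.349% and 0.341%, a mean of 0.345% ± 0.00408. The 4 high-glucose shares were all below the 4 low-glucose shares, and the mean ratio was 0.732. In MDA-MB-468 the low-glucose shares were 0.347%, 0.357%, 0.349% and 0.353% (0.351% ± 0.00443) and the high-glucose shares 0.355%, 0.357%, 0.354% and 0.345% (0.353% ± 0.00532). These groups overlapped fully, and high-glucose MDA-MB-231 lay at the level of both MDA-MB-468 groups.

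**Figure D2:**
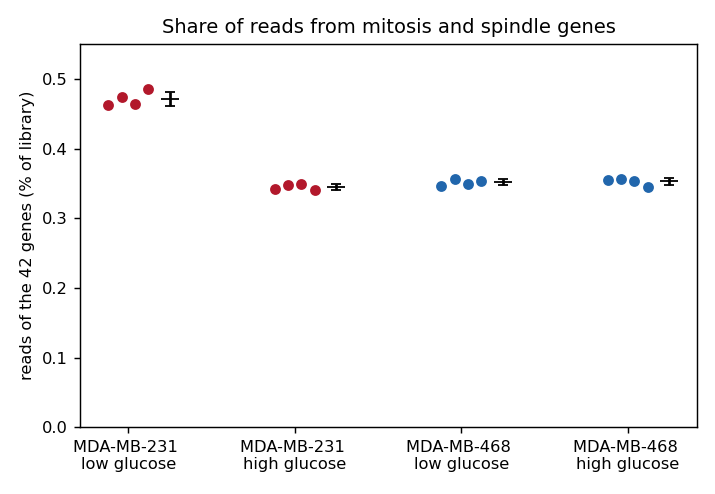
Share of a library's reads that fell in the 42 genes (vertical axis, percent) for each of the 16 libraries (points), with the mean and SD of each group of 4 (black bars). Low-glucose MDA-MB-231 stands apart at 0.463% to 0.485%, and the other 3 groups lie between 0.341% and 0.357%.

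The members share short promoter sequences as well. RefSeq promoter windows (GRCh38.p14, 250 bases before to 50 after the start site) were found for 35 of the 42 genes, 38 windows in all. The cell cycle genes homology region (CHR), bound by the MuvB core of the DREAM complex, was searched as TTTGAA or TTCGAA, and the CCAAT box, bound by NF-Y, as CCAAT, each on both strands. The CHR letters occurred in 29 of the 38 windows (76.3%), compared with 16.4% of all 35116 windows, and CCAAT occurred in 27 (71.1%), compared with 34.6%. Both occurred in 22 windows (57.9%), against 6.38% of all windows, and the motifs overlapped each other at 2 places in the members' windows. A match to these letters describes the sequence and is neither a shown binding site nor a cause of any change. The 120 bases before the start site are printed for 6 genes chosen after their values were seen, because they cover the range of responses in MDA-MB-468: PLK1 with a rise, CCNB1 with a small rise, CDC20 with no call, and MKI67, KIF18A and HMMR with falls. Capitals mark CHR and CCAAT letters on either strand, and each sequence is given 5' to 3' on the strand of its gene. The windows lie at chr16:23678769-23678888 (+) for PLK1, chr5:69167030-69167149 (+) for CCNB1, chr1:43358861-43358980 (+) for CDC20, chr10:128126424-128126543 (-) for MKI67, chr11:28108157-28108276 (-) for KIF18A and chr5:163460512-163460631 (+) for HMMR.
PLK1: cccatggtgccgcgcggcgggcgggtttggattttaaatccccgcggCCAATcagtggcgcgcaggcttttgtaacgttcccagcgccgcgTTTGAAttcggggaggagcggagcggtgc
CCNB1: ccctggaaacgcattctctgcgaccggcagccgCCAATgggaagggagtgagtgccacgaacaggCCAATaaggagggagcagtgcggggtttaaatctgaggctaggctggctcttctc
CDC20: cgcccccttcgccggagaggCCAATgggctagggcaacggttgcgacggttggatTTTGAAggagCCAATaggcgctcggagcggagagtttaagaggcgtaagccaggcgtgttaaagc
MKI67: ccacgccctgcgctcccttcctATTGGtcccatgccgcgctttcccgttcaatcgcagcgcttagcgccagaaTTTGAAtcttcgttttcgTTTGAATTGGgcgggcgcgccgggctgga
KIF18A: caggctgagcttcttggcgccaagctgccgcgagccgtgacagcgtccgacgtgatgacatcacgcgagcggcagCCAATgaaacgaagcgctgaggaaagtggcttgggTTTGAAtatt
HMMR: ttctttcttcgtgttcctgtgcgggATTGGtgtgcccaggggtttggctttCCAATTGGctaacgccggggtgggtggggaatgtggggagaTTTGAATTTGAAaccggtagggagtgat
CHR and CCAAT letters stood before genes that rose, did not pass the test and fell in MDA-MB-468, and the CCNB1 window shown held CCAAT only. All 6 genes had negative fold changes in MDA-MB-231.

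Among the kinases and cyclins of mitotic entry, all 8 fell in MDA-MB-231 (median log2 fold change -0.44) and 5 rose in MDA-MB-468 (median 0.13), where the other 3 did not pass the threshold. Counts of this and the following role groups are to be read against the shares of all tested genes. Those were 9.37% lower and 5.71% higher in MDA-MB-231, and 24.9% higher and 22.7% lower in MDA-MB-468. CDK1 (chr10:62538089-62554610; positions of genes are on GRCh37) encodes the kinase that starts mitosis. Its normalized read counts in MDA-MB-231 were 1388, 1508, 1399 and 1436 in low glucose and 913, 995, 995 and 970.1 in high glucose. In MDA-MB-468 they were 1359, 1365, 1247 and 1252 in low and 1443, 1322, 1378 and 1321 in high glucose. All high-glucose MDA-MB-231 libraries were lower than any other library, while the groups of MDA-MB-468 overlapped. The fall in MDA-MB-231 was from 1433 ± 54.2 (SD, n = 4) to 968 ± 38.8, or 32.4% (-0.57 on the log2 scale, SE 0.04, adjusted p 1.25e-07 by limma), and the MDA-MB-468 values gave 0.07 on the log2 scale, SE 0.04, adjusted p 0.234 by limma. With a correction for GC content CDK1 was called higher in MDA-MB-468, at 0.16 (adjusted p = 0.004, limma). CCNB1 (chr5:68462962-68474072), the cyclin B1 that activates CDK1, read 2712, 2860.3, 2617 and 2766 in low-glucose and 2061, 2130.0, 2161 and 2092 in high-glucose MDA-MB-231. The MDA-MB-468 libraries read 1589, 1618, 1623 and 1601 and, in high glucose, 1815, 1730.3, 1711 and 1736. The groups overlapped in neither line, and they moved in opposite directions. CCNB1 fell by 22.9% in MDA-MB-231 (-0.37 on the log2 scale, SE 0.04, adjusted p 9.61e-07 by limma) and rose by 8.72% in MDA-MB-468 (0.12 on the log2 scale, SE 0.03, adjusted p 0.007 by limma).

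PLK1 (chr16:23688977-23701688), the polo-like kinase that matures centrosomes and builds the spindle, showed one of the widest contrasts between the lines. In MDA-MB-231 its counts were 1741, 1635, 1729.9 and 1610.0 in low glucose and 1282, 1223, 1225 and 1197 in high glucose. In MDA-MB-468 they were 797, 766, 775 and 785 in low glucose and 1215, 1256, 1313 and 1335 in high glucose. The low-glucose groups of the lines lay far apart, and the high-glucose groups overlapped around 1232. PLK1 fell by 26.6% in MDA-MB-231 (-0.45 on the log2 scale, SE 0.04, adjusted p 6.05e-07 by limma) and rose by 63.7% in MDA-MB-468 (0.71 on the log2 scale, SE 0.04, adjusted p 9.8e-10 by limma). AURKA (chr20:54944445-54967393), the Aurora kinase of the spindle poles, gave 2194, 2193, 2194 and 2225 and then 1713, 1772, 1708 and 1656 in low- and high-glucose MDA-MB-231. It gave 906, 953, 931 and 913 and 965, 1031, 1019.8 and 1054 in low- and high-glucose MDA-MB-468. Neither line's groups overlapped. The fall of 22.2% in MDA-MB-231 (-0.36 on the log2 scale, SE 0.03, adjusted p 8.95e-07 by limma) was larger in size than the rise of 9.85% in MDA-MB-468 (0.14 on the log2 scale, SE 0.04, adjusted p 0.0122 by limma).

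PBK, a kinase active in mitosis, read 722, 774, 758 and 812 in low-glucose MDA-MB-231 and 563, 582, 491 and 537 in high glucose. Its MDA-MB-468 libraries read 224, 273, 207 and 239 in low and 357, 317, 365 and 343 in high glucose. Every low-glucose MDA-MB-231 library was above every other library of this gene. PBK fell by 29.1% in MDA-MB-231 (-0.50 on the log2 scale, SE 0.06, adjusted p 1.07e-05 by limma) and rose by 46.8% in MDA-MB-468 (0.55 on the log2 scale, SE 0.08, adjusted p 3.48e-05 by limma). The annotated PBK gene shares 3017 bases with ESCO2 on the opposite strand. ESCO2 averaged 214.6 normalized reads over the 16 samples and PBK 472.8. It is not known whether reads were counted by strand, so the value of PBK is uncertain to that extent. MELK (chr9:36572859-36677680), a kinase abundant in proliferating cells, read 1047, 1031, 1093 and 1043 in low-glucose and 785, 835, 788 and 851 in high-glucose MDA-MB-231. In MDA-MB-468 MELK read 2070.3, 2239.6, 1977 and 2007 in low and 2269, 2255, 2362 and 2212 in high glucose. Its level was the higher in MDA-MB-468 throughout, and the MDA-MB-468 groups overlapped at their edges. MELK fell by 22.7% in MDA-MB-231 (-0.37 on the log2 scale, SE 0.04, adjusted p 1.32e-05 by limma) and rose by 9.78% in MDA-MB-468 (0.13 on the log2 scale, SE 0.04, adjusted p 0.0109 by limma). The remaining genes of mitotic entry, CCNB2 (cyclin B2) and NEK2 (a kinase of centrosome separation), fell by 25.9% and 28.6% in MDA-MB-231. In MDA-MB-468 their log2 fold changes were 0.10 and 0.10 (adjusted p = 0.0602 and 0.162, limma).

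**Figure D3:**
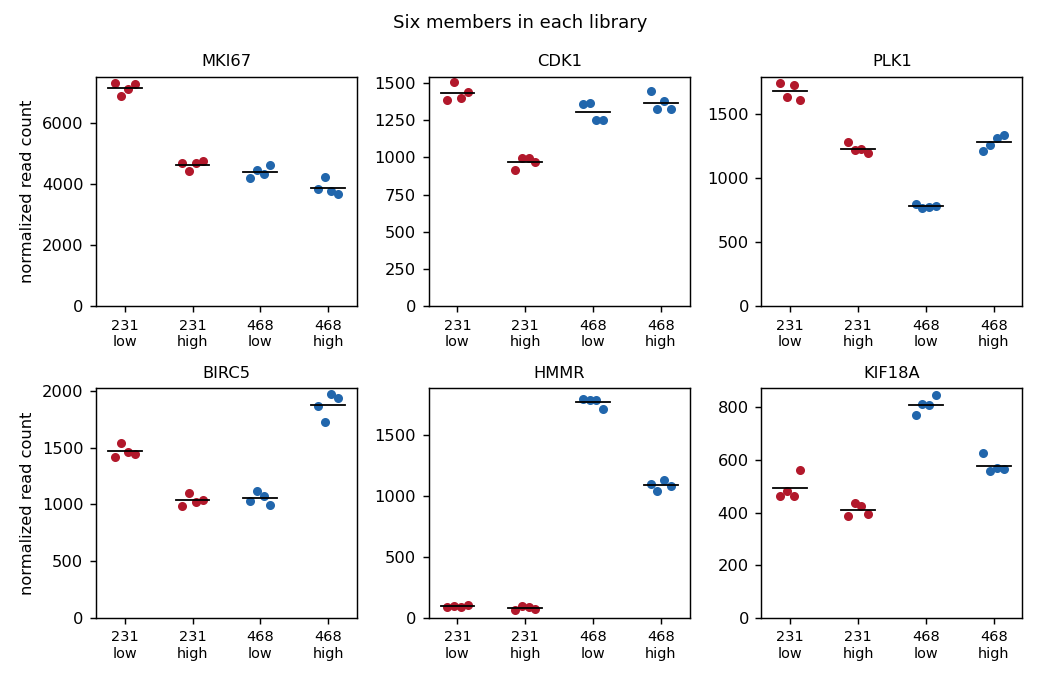
Normalized read count (vertical axis) of MKI67, CDK1, PLK1, BIRC5, HMMR and KIF18A in each of the 16 libraries (points), with the mean of each group of 4 (line). PLK1 and BIRC5 fall from low to high glucose in MDA-MB-231 (red) and rise in MDA-MB-468 (blue), whereas MKI67 and KIF18A fall in both lines.

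All 5 genes of the spindle checkpoint and the APC/C fell in MDA-MB-231 (9.37% of all tested genes were called lower). In MDA-MB-468 1 of them, UBE2C, rose (24.9% of all tested genes were called higher). CDC20 (chr1:43824652-43828874), the activator that directs the APC/C to its targets, read 2983, 3012, 2976 and 2668 in low-glucose and 2190.3, 2099, 2098 and 2278 in high-glucose MDA-MB-231. The MDA-MB-468 libraries held 3006, 2756, 2946 and 2850.0 in low and 2887, 2898, 2954 and 3056 in high glucose. Only the high-glucose MDA-MB-231 libraries stood below the rest. CDC20 fell by 25.5% in MDA-MB-231 (-0.42 on the log2 scale, SE 0.04, adjusted p 1.81e-06 by limma), and in MDA-MB-468 its values gave 0.03 on the log2 scale, SE 0.03, adjusted p 0.502 by limma. UBE2C (chr20:44441215-44445596), the ubiquitin-conjugating enzyme of the APC/C, read 1796, 1796, 1826 and 1779 and 1206, 1281, 1261 and 1392 in low- and high-glucose MDA-MB-231. Its MDA-MB-468 counts were 667, 670.2, 684 and 641 in low glucose and 735, 738, 797 and 773 in high glucose. The groups did not overlap in either line. UBE2C fell by 28.6% in MDA-MB-231 (-0.49 on the log2 scale, SE 0.04, adjusted p 4.88e-07 by limma) and rose by 14.2% in MDA-MB-468 (0.19 on the log2 scale, SE 0.05, adjusted p 0.00218 by limma). The checkpoint kinases BUB1 and TTK and the BubR1 gene BUB1B fell by 29.3%, 26.9% and 26.8% in MDA-MB-231. Their log2 fold changes in MDA-MB-468 were 0.005, -0.02 and -0.06, with adjusted p of 0.939, 0.767 and 0.301 (limma). BUB1B shares 3696 bases with PAK6 on the same strand, which averaged 157.3 normalized reads over the 16 samples against 737.4 for BUB1B.

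The 5 centromere and kinetochore genes all fell in MDA-MB-231, with a median log2 fold change of -0.51 (9.37% of all tested genes were called lower). In MDA-MB-468 CENPA rose, CENPE fell and 3 did not pass (24.9% of all tested genes higher, 22.7% lower). NDC80 (chr18:2571556-2616634), a subunit of the complex that binds microtubules at the kinetochore, read 788, 854, 712 and 819 in low- and 560.5, 591, 559 and 521 in high-glucose MDA-MB-231. In MDA-MB-468 it read 1497, 1605, 1492 and 1421 in low and 1608, 1459, 1594 and 1455 in high glucose. The MDA-MB-231 groups were separate and the MDA-MB-468 groups, at a higher level, overlapped. NDC80 fell by 29.6% in MDA-MB-231 (-0.51 on the log2 scale, SE 0.06, adjusted p 1.11e-05 by limma), and in MDA-MB-468 gave 0.02 on the log2 scale, SE 0.05, adjusted p 0.696 by limma. NUF2 (chr1:163236366-163325554), its partner in the same complex, read 507, 542, 519 and 528 and 409, 384, 416 and 358 in low- and high-glucose MDA-MB-231. The MDA-MB-468 libraries read 171, 188, 167 and 166 in low and 187, 187, 233 and 189.7 in high glucose, with the third high-glucose library above the rest of its group. NUF2 fell by 25.3% in MDA-MB-231 (-0.42 on the log2 scale, SE 0.06, adjusted p 7.5e-05 by limma), and in MDA-MB-468 its values gave 0.20 on the log2 scale, SE 0.09, adjusted p 0.081 by limma, which became 0.26 and a call under the GC correction (adjusted p = 0.02). NUF2 spans 55216 bases that also hold RGS5 on the opposite strand, which averaged 20.4 normalized reads over the 16 samples against 322 for NUF2.

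CENPE (chr4:104026506-104119602), a kinetochore motor, was 1 of the 6 members called lower in both lines. Its counts were 800.3, 857, 795 and 835 in low-glucose and 629.6, 564, 549.9 and 569 in high-glucose MDA-MB-231. The MDA-MB-468 counts were 498, 575, 489 and 529 in low and 439, 446, 394 and 427 in high glucose. High glucose gave the lower values in both lines without overlap. CENPE fell by 29.7% in MDA-MB-231 (-0.51 on the log2 scale, SE 0.05, adjusted p 2.46e-06 by limma) and by 18.4% in MDA-MB-468 (-0.29 on the log2 scale, SE 0.06, adjusted p 0.00092 by limma). CENPA, the histone variant that marks centromeres, fell by 28.3% in MDA-MB-231 and rose by 21.9% in MDA-MB-468 (adjusted p = 0.000371, limma). Its annotated span overlaps SLC35F6 on the same strand over 16943 bases, so reads of the shared part cannot be assigned with certainty. SLC35F6 averaged 1445 normalized reads over the 16 samples, above the 340.2 of CENPA. CENPF, a large kinetochore protein, fell by 32.4% in MDA-MB-231 and gave 0.003 on the log2 scale in MDA-MB-468 (adjusted p = 0.961, limma).

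The chromosomal passenger complex was the role group whose 3 listed members were all called in both lines. The listed members were lower in MDA-MB-231 (9.37% of all tested genes) and higher in MDA-MB-468 (24.9% of all tested genes). INCENP, also a subunit of the complex, was counted with the other kinetochore and checkpoint genes, and its own value is not given here. BIRC5 (chr17:76210267-76221717), survivin, which is both a subunit of this complex and an inhibitor of apoptosis, read 1418, 1545, 1459 and 1447 in low-glucose and 982, 1098, 1023 and 1042 in high-glucose MDA-MB-231. In MDA-MB-468 it read 1031, 1118, 1070.4 and 997 in low and 1871, 1724, 1972 and 1937 in high glucose. The high-glucose MDA-MB-468 libraries held more BIRC5 than any other library, and the groups overlapped in neither line. BIRC5 fell by 29.4% in MDA-MB-231 (-0.50 on the log2 scale, SE 0.04, adjusted p 4.75e-07 by limma) and rose by 77.8% in MDA-MB-468 (0.83 on the log2 scale, SE 0.05, adjusted p 7.89e-10 by limma). AURKB (chr17:8108051-8113918), the catalytic kinase of the complex, read 835, 798, 798 and 749 in low- and 629.6, 622, 627 and 596 in high-glucose MDA-MB-231. Its MDA-MB-468 counts were 372, 335, 361 and 362 in low and 386, 385, 418 and 408 in high glucose. The groups were separate in each line, narrowly so in MDA-MB-468. AURKB fell by 22.1% in MDA-MB-231 (-0.36 on the log2 scale, SE 0.05, adjusted p 4.01e-05 by limma) and rose by 11.7% in MDA-MB-468 (0.16 on the log2 scale, SE 0.06, adjusted p 0.0326 by limma). That rise did not pass without low-glucose replicate 2, 3 or 4 or high-glucose replicate 3 or 4 of MDA-MB-468, and its adjusted p over all alternatives ranged from 0.0295 to 0.12 (limma, edgeR and DESeq2). CDCA8, borealin, fell by 26.2% in MDA-MB-231 and rose by 33.8% in MDA-MB-468 (adjusted p = 2.77e-07, limma).

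All 8 kinesin motors fell in MDA-MB-231 (9.37% of all tested genes were called lower). In MDA-MB-468 3 rose, 3 fell and 2 did not pass (24.9% of all tested genes higher, 22.7% lower). KIF11 (chr10:94333862-94415152), the motor that pushes the spindle poles apart, read 2035, 2057, 1974 and 2207 in low-glucose and 1507, 1494, 1477 and 1469 in high-glucose MDA-MB-231. Its MDA-MB-468 counts were 862, 873, 826 and 907 in low and 1007, 1052, 951 and 935 in high glucose. The groups did not overlap in either line. KIF11 fell by 28% in MDA-MB-231 (-0.47 on the log2 scale, SE 0.04, adjusted p 2.3e-07 by limma) and rose by 13.7% in MDA-MB-468 (0.18 on the log2 scale, SE 0.05, adjusted p 0.00381 by limma). KIF15 (chr3:44803213-44914868), a motor that helps to keep the spindle bipolar, had the largest fall among the members in MDA-MB-231, from 488, 519, 501 and 496 to 327, 321, 342 and 298. In MDA-MB-468 it read 244, 233, 244 and 269 in low and 249.8, 252, 241 and 247 in high glucose, and the high-glucose values lay inside the low-glucose range. The fall in MDA-MB-231 was 35.7% (-0.64 on the log2 scale, SE 0.06, adjusted p 7.28e-07 by limma). In MDA-MB-468 the KIF15 values gave 0.002 on the log2 scale, SE 0.07, adjusted p 0.985 by limma. KIF15 shares 3767 bases with TMEM42 on the same strand, so reads of the shared part cannot be assigned with certainty. TMEM42 averaged 115.3 normalized reads over the 16 samples and KIF15 329.5.

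KIF18A (chr11:28042166-28129703), which dampens chromosome movements at the metaphase plate, fell more in MDA-MB-468 than in MDA-MB-231, though that difference between lines did not pass the test. It read 462, 481, 465 and 560.3 in low-glucose and 386, 438, 424 and 395 in high-glucose MDA-MB-231. In MDA-MB-468 it read 769, 814, 808 and 849 in low and 625, 557, 568 and 566 in high glucose. High glucose gave the lower values in both lines. KIF18A fell by 16.4% in MDA-MB-231 (-0.26 on the log2 scale, SE 0.07, adjusted p 0.0151 by limma) and by 28.5% in MDA-MB-468 (-0.48 on the log2 scale, SE 0.05, adjusted p 6.76e-07 by limma). Without high-glucose replicate 1 the adjusted p in MDA-MB-231 was 0.0525. Among the other motors, KIF2C, which depolymerizes microtubules, and KIF4A, which binds chromosomes, rose in MDA-MB-468 by 11.1% and 12.7%. KIF14 and KIF23, which both act at the midbody, fell there by 17.5% and 10.8%, and KIF20A, a motor of the central spindle, had a log2 fold change of -0.08 (adjusted p = 0.055, limma). In MDA-MB-231 these 5 motors fell by between 24.5% (KIF20A) and 30.5% (KIF23). No value was used for KIF4B, a near-identical copy of KIF4A, so reads from the copies cannot be told apart here.

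Of the 8 spindle microtubule proteins, 7 fell in MDA-MB-231 (9.37% of all tested genes were called lower). In MDA-MB-468 TPX2 rose, HMMR and PRC1 fell, and 5 did not pass (24.9% of all tested genes higher, 22.7% lower). HMMR (chr5:162887209-162918947), the hyaluronan-mediated motility receptor that also binds spindle microtubules, was the member that differed most in level between the lines. Its counts were 88.6, 94.9, 90.5 and 102 in low-glucose and 67.1, 96.8, 86.4 and 67.5 in high-glucose MDA-MB-231. The MDA-MB-468 counts were 1792, 1784, 1783 and 1714 in low and 1094, 1036, 1129.7 and 1083 in high glucose. The gene was far lower in MDA-MB-231, where its groups overlapped, and the MDA-MB-468 groups were well separated. HMMR fell by 38.6% in MDA-MB-468 (-0.70 on the log2 scale, SE 0.04, adjusted p 4.22e-10 by limma), and its MDA-MB-231 values gave -0.25 on the log2 scale, SE 0.13, adjusted p 0.227 by limma. TPX2, the activator of AURKA on spindle microtubules, fell by 28.4% in MDA-MB-231 and rose by 11% in MDA-MB-468 (adjusted p = 0.0033, limma). PRC1, which bundles microtubules between the separating chromosomes, fell in both lines, by 31.5% and 10.9%. The other members of this group were ASPM and SPAG5 at the spindle poles, NUSAP1 and DLGAP5 near the chromosomes, and CKAP2. In MDA-MB-231 they fell by between 19.2% (CKAP2) and 31.7% (ASPM), and in MDA-MB-468 their log2 fold changes lay between -0.04 and 0.04 and did not pass. NUSAP1 overlaps OIP5-AS1 on the same strand over 1599 bases, which averaged 1888 normalized reads over the 16 samples.

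MKI67 (chr10:129894923-129924687), which encodes the proliferation marker Ki-67, read 7323, 6878, 7124 and 7275 in low-glucose and 4694, 4439, 4684 and 4743 in high-glucose MDA-MB-231. In MDA-MB-468 it read 4196, 4475, 4335 and 4625 in low and 3832, 4246, 3782 and 3688 in high glucose. The MDA-MB-231 groups were far apart, and those of MDA-MB-468 overlapped by a single high-glucose library, replicate 2. MKI67 fell by 35.1% in MDA-MB-231 (-0.62 on the log2 scale, SE 0.03, adjusted p 1.12e-09 by limma) and by 11.9% in MDA-MB-468 (-0.18 on the log2 scale, SE 0.04, adjusted p 0.00179 by limma). The latter log2 value became -0.05 (adjusted p = 0.16) after a correction for transcript length. TOP2A (chr17:38544777-38574148), the topoisomerase that untangles sister chromatids, read 7584, 7767, 7797 and 8362 in low- and 5495, 5558, 5502 and 5326 in high-glucose MDA-MB-231. Its MDA-MB-468 counts were 3374, 3368, 3233 and 3353 in low and 3507, 3485, 3351 and 3224 in high glucose. The MDA-MB-468 groups overlapped, and the MDA-MB-231 groups did not. TOP2A fell by 30.5% in MDA-MB-231 (-0.53 on the log2 scale, SE 0.03, adjusted p 1.23e-08 by limma), and in MDA-MB-468 gave 0.03 on the log2 scale, SE 0.03, adjusted p 0.565 by limma. That value was called at 0.08 under the length correction (adjusted p = 0.0422) and at 0.09 under the GC correction (adjusted p = 0.0201).

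FOXM1 (chr12:2966846-2986340), the transcription factor of many genes of G2 and mitosis, read 2907, 2885, 2960.3 and 2683 in low-glucose and 2272, 2251, 2301 and 2333 in high-glucose MDA-MB-231. It read 1705, 1585, 1732 and 1645 in low-glucose and 1585, 1624, 1536 and 1617 in high-glucose MDA-MB-468. Only the MDA-MB-231 groups were separate. FOXM1 fell by 19.9% in MDA-MB-231 (-0.32 on the log2 scale, SE 0.04, adjusted p 7.32e-06 by limma), and in MDA-MB-468 gave -0.07 on the log2 scale, SE 0.04, adjusted p 0.157 by limma. The GC correction made the latter -0.12 (adjusted p = 0.0061), a call. The cytokinesis genes ANLN (anillin, a scaffold of the cleavage furrow) and ECT2 (the exchange factor that activates RhoA there) fell by 32% and 12.9% in MDA-MB-231. In MDA-MB-468 their log2 fold changes were 0.03 and -0.02 (adjusted p = 0.583 and 0.775, limma).

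The difference between the responses of the lines was tested directly over all 16 samples, as MDA-MB-468 minus MDA-MB-231. The response was higher in MDA-MB-468 for 39 of the 42 members and lower for 1, where 17.0% of 17115 tested genes were called higher and 13.9% lower. The median difference over the members was 0.52 on the log2 scale, against -0.004 over all genes. It was widest for BIRC5, at 1.33 (SE 0.07, adjusted p 8.44e-10), PLK1, at 1.16 (SE 0.05, 3e-10), and PBK, at 1.05 (SE 0.11, 1.37e-06), all by limma. HMMR went the other way, at -0.45 (SE 0.13, adjusted p 0.0141), and did not pass a threshold of 0.01. CENPE at 0.22 and KIF18A at -0.23 did not pass (adjusted p = 0.053 and 0.0594). Of the members, 14 were called lower in MDA-MB-231 and higher in MDA-MB-468, and 6 were called lower in both. Since 41 of the 42 were lower in MDA-MB-231, these counts mostly repeat the calls in MDA-MB-468 (14 higher, 7 lower). The share of all genes with such joint calls was not counted. The order of the members by response was not shared between lines: Spearman's rho over the 42 genes was 0.056, a description across genes that are not independent.

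The low-glucose control cultures of the lines also differed in the levels of these genes. In low glucose 33 members were lower in MDA-MB-468 than in MDA-MB-231 and 6 were higher, where 40.4% of tested genes were called lower and 45.0% higher. The median log2 difference was -0.66 over the members and 0.08 over all genes tested. The farthest below were PBK at -1.70 (SE 0.08), NUF2 at -1.59 (SE 0.07) and UBE2C at -1.43 (SE 0.04), with adjusted p of 5.54e-13, 8.1e-13 and 7.25e-16 (limma). HMMR stood the other way at 4.22 (SE 0.09, adjusted p 2.3e-17), 18.7-fold higher in MDA-MB-468, followed by MELK at 0.98 (SE 0.04) and NDC80 at 0.92 (SE 0.06), with adjusted p of 1.47e-13 and 5.16e-11. CDC20, KIF20A and KIF4A did not pass (log2 differences -0.009, -0.005 and 0.002). Partners in 1 complex went apart here: NDC80 was higher and NUF2 lower in MDA-MB-468. Per kilobase of transcript in low-glucose MDA-MB-231, the members ranged from 31.2 normalized reads for HMMR to 2315 for UBE2C, with a median of 523 against 120.1 over all genes tested. In low-glucose MDA-MB-468 they ranged from 52.0 for KIF15 to 1752 for CDC20, with a median of 372.

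**Figure D4:**
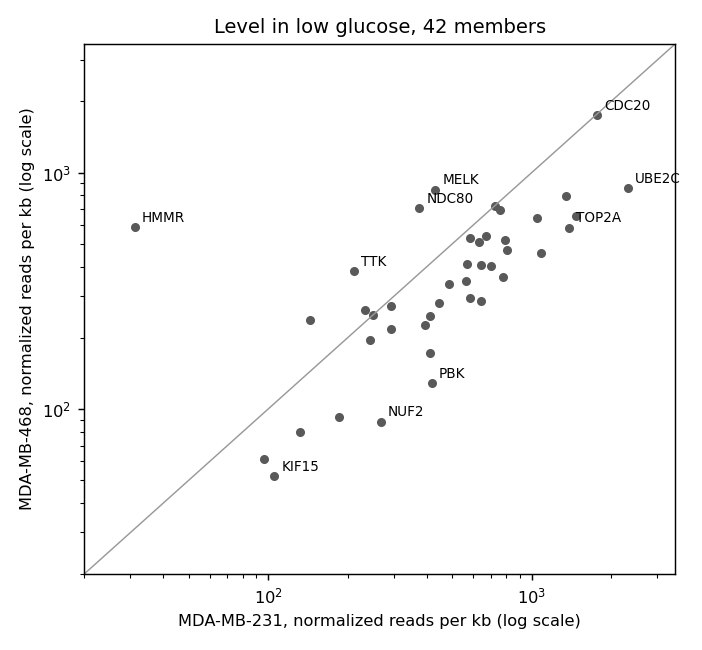
Level of each member in low glucose, as normalized reads per kilobase of transcript, in MDA-MB-231 (horizontal axis) and MDA-MB-468 (vertical axis), both on log scales, with the line of equal level. Most members lie below the line, and HMMR lies far above it, at 31.2 against 586.

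The longer members tended to have the lower fold changes. Across the 42 genes, whose transcripts ran from 777 nucleotides (UBE2C) to 12716 (MKI67), length and log2 fold change had a Spearman's rho of -0.345 in the MDA-MB-231 fit and -0.537 in the MDA-MB-468 fit. Over all genes tested rho was -0.194 and -0.148. The 5 members with transcripts over 6000 nucleotides, ASPM, CENPE, CENPF, KIF14 and MKI67, had log2 fold changes between -0.62 and -0.50 in MDA-MB-231 and between -0.29 and 0.04 in MDA-MB-468. The median length was 2265.5 nucleotides for the 14 members called higher in MDA-MB-468 and 3660.0 for the 7 called lower. With a loess correction of each sample for transcript length, 41 members were still called lower in MDA-MB-231, and the 14 higher members of MDA-MB-468 lost AURKB and gained ASPM, CENPF and TOP2A. With a correction for GC content instead, the calls in MDA-MB-468 lost AURKB and gained ANLN, CCNB2, CDK1, FOXM1, KIF20A, NEK2, NUF2 and TOP2A. Correlations over genes carry no p here, since the genes are not independent and share libraries and annotation.

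**Figure D5:**
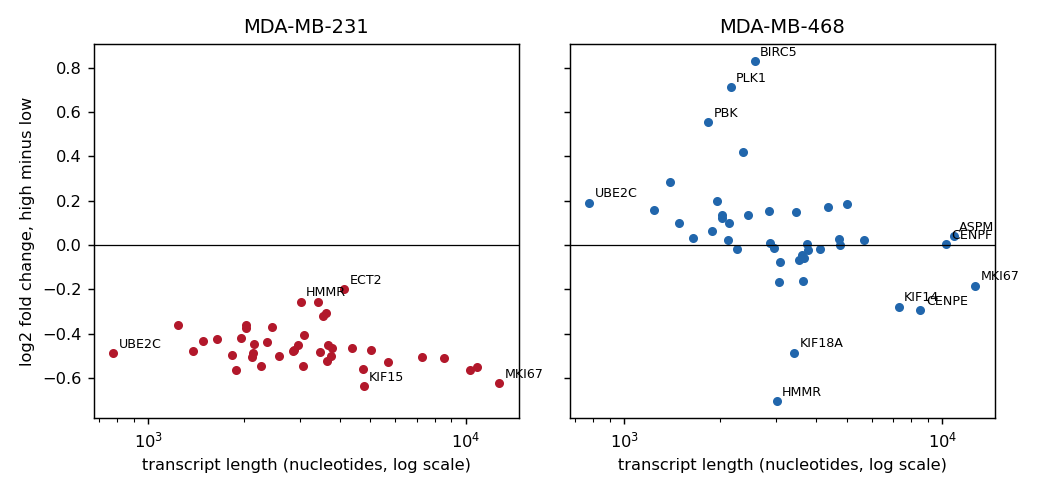
Log2 fold change of each member, high minus low glucose (vertical axis), against the length of its canonical transcript in nucleotides (horizontal axis, log scale), for MDA-MB-231 (left) and MDA-MB-468 (right). In MDA-MB-468 the largest rises (BIRC5, PLK1, PBK) are in transcripts of 1836 to 2574 nucleotides.

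Within a group, the members varied together only weakly. After each group's mean was subtracted, the median Pearson correlation between pairs of members was 0.103 over the 16 samples (861 pairs), against 0.004 over all pairs of the 8374 genes whose mean was at least that of the lowest member. In MDA-MB-231 alone it was 0.147 and in MDA-MB-468 0.081. The median member deviated from its group mean by at most 0.028 on the log2 scale in any library.

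Other mitotic genes were counted in lists that share no gene with the 42. The shares of all tested genes to read these counts against are 9.37% lower and 5.71% higher in MDA-MB-231, and 22.7% lower and 24.9% higher in MDA-MB-468. Of 38 other kinetochore and checkpoint genes, 26 fell in MDA-MB-231 and 12 did not pass, with the largest fall in SGO1, a guardian of centromeric cohesion (-0.56 on the log2 scale, SE 0.08, adjusted p 0.000158 by limma). In MDA-MB-468, 17 of the 38 fell and 5 rose, from SKA1 at -0.71 (SE 0.06, 1.48e-07) to CENPM at 0.46 (SE 0.09, 0.000557). Of 19 condensin, cohesin and separase genes, 14 fell in MDA-MB-231, led by the condensin subunit NCAPG at -0.57 (SE 0.04, 3.79e-08). In MDA-MB-468, 8 fell, led by STAG1 at -0.38 (SE 0.04, 3.64e-07), and 3 rose, led by the separase gene ESPL1 at 0.67 (SE 0.06, 1.02e-07). Of 28 other spindle and cytokinesis genes, 20 fell in MDA-MB-231, led by CKAP2L at -0.56 (SE 0.06, 8.71e-06). In MDA-MB-468, 10 fell, led by the augmin subunit HAUS2 at -0.74 (SE 0.05, 2.26e-09), and 3 rose, led by PSRC1 at 0.77 (SE 0.07, 1.25e-07). Among 16 other regulators of entry and exit, 12 fell in MDA-MB-231, led by the CDK1-inhibiting kinase gene PKMYT1 at -0.56 (SE 0.08, 0.000122), while in MDA-MB-468 6 fell, led by PPP2R2A at -0.33 (SE 0.05, 2.63e-05), and 3 rose, led by the cyclin A2 gene CCNA2 at 0.40 (SE 0.04, 6.97e-07). The falls in MDA-MB-468 numbered 5 of the 19 condensin, cohesin and separase genes without low-glucose replicate 2 or high-glucose replicate 4 of that line, and 3 of the 16 regulators without low-glucose replicate 2. Of those 19 genes, 5 fell and 5 rose there under the length correction and 5 fell under the GC correction.

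Further lists covered the core of the APC/C and the complexes that control transcription of mitotic genes, and the same shares of all genes apply (9.37% lower in MDA-MB-231, 22.7% lower and 24.9% higher in MDA-MB-468). Of 17 APC/C subunits and regulators, 3 fell in MDA-MB-231, led by UBE2S, which extends ubiquitin chains (-0.43, SE 0.04, limma adjusted p 6.62e-07), and 14 did not pass. In MDA-MB-468, 5 fell, led by CDC26 at -0.33 (SE 0.07, 0.00104), and 3 rose, led by ANAPC5 at 0.45 (SE 0.04, 1.53e-07), and the falls numbered 3 without low-glucose replicate 2 of MDA-MB-468. Of 12 genes of the DREAM and MuvB complexes, 3 fell in MDA-MB-231, led by MYBL2 (B-MYB, -0.66, SE 0.04, 2.67e-08), and 9 did not pass. In MDA-MB-468, 4 fell, led by LIN54 at -0.33 (SE 0.06, 0.000553), and 3 rose, led by TFDP2 at 0.27 (SE 0.05, 0.000333). All 11 genes of the proliferation signature that the study applied to patient tumors and xenografts fell in MDA-MB-231, led by TYMS at -0.65 (SE 0.03, 1.9e-09). Of the 11, 7 are members of the 42. In MDA-MB-468, 5 of the 11 rose, led by BIRC5, and 3 fell, led by CEP55 at -0.28 (SE 0.06, 0.00101). For cultures that included both lines, the study measured proliferation by BrdU incorporation and reported no increase in high glucose.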

How the data were processed

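RNA sequencing of MDA-MB-231 and MDA-MB-468 at 5 mM or 25 mM glucose gave 16 libraries in 4 groups of 4, grouped by their labels. The authors trimmed reads with Trimmomatic and aligned them with TopHat to hg19 with an Ensembl annotation, according to the methods, while the submitters' processing notes name hg38 and edgeR. The counting program and its use of strand are not given in the sources used here. The deposited values are a normalized signal: the authors scaled the reads of each gene by a factor per library. Every value was a whole multiple of its library's step (largest deviation 5.82e-05 of a read), which gave back the whole reads, 14094597 to 24425916 per library. A floor of 3 reads is 0.123 to 0.213 CPM (reads scaled to library size) and covers counting error only.

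Genes that reached 0.5 CPM in at least 2 samples were tested by limma 3.58.1 (lmFit, eBayes with trend, R 4.3.3) on log2(value + 1), two-sided, with Benjamini-Hochberg adjustment over all genes tested and a threshold of 0.05. Each line was fitted on its 8 samples. The difference between the responses and the difference between lines in low glucose came from 4 group means over 16 samples. Fold changes on this scale understate changes of low genes. Percent changes are 2 to the power of the log2 fold change, less 1. Symbols (17647 genes), positions and canonical transcripts were taken from GENCODE lifted to GRCh37, and promoter windows from RefSeq (GRCh38.p14). These builds were not mixed.

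The members, the role groups, the other gene lists and the markers were chosen with earlier results of these data known. Values in every sample are given for 10 members fixed over the roles, for the 3 largest rises and falls in each line, for the 3 largest differences of the response between lines in each direction, and for the 3 largest differences between lines in low glucose in each direction. From each other list the largest called rise and fall is named. Alternatives were other pseudocounts (0.5 and 5), other filters, quantile and TMM rescaling, edgeR 4.0.16 and DESeq2 1.42.0 on the recovered reads, corrections by loess for GC content or for the length of transcripts, a block for the replicate number, a threshold of 0.01, and leaving out each library in turn. The fits were also run on simulated counts, but the outcome is not given here and no result rests on it. The labels number replicates 1 to 4 in each group.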

Additional observations from a re-analysis of the deposited data

Results flagged for a closer look

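In 6 of the 84 groups of 4 samples examined, 1 sample stood apart from the other 3 by Dixon's criterion, where chance gives about 1 in 20. In low glucose these were TOP2A in MDA-MB-468 replicate 3, at 3233 normalized reads against 3353 to 3374 in the others, AURKA in MDA-MB-231 replicate 4, at 2225 against 2193 to 2194, CDC20 in MDA-MB-231 replicate 4, at 2668 against 2976 to 3012, and HMMR in MDA-MB-468 replicate 4, at 1714 against 1783 to 1792. In high glucose these were KIF18A in MDA-MB-468 replicate 1, at 625 against 557 to 568, and NUF2 in MDA-MB-468 replicate 3, at 233 against 187 to 189.7. The other 3 values of AURKA nearly coincide.

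Of the 20 members described in every sample, 18 had a response to high glucose that differed between the lines, by the interaction contrast of limma. Part of the 20 were chosen for the size of this difference or of the responses, so the count of 18 carries no weight. Over all 42 members the response was higher in MDA-MB-468 for 39 and lower for 1. Of all tested genes, 17.0% were called higher and 13.9% lower. As MDA-MB-468 minus MDA-MB-231 on the log2 scale, the difference was 1.33 for BIRC5, 1.16 for PLK1, 1.05 for PBK, 0.68 for UBE2C, 0.66 for KIF11, 0.64 for KIF15, 0.63 for CDK1, 0.62 for NUF2, 0.55 for TOP2A, 0.53 for NDC80, 0.52 for AURKB, 0.51 for MELK, 0.50 for AURKA, 0.50 for CCNB1, 0.45 for CDC20, 0.44 for MKI67 and 0.25 for FOXM1, and -0.45 for HMMR. The lines were also maintained in different media, which cannot be told apart from the line.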

How the results depend on the processing

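Under all alternatives 40 to 41 members were lower and 0 higher in MDA-MB-231, 11 to 19 were higher and 6 to 9 lower in MDA-MB-468, and 37 to 40 had the higher response in MDA-MB-468. The 11 came from the threshold of 0.01 and the 19 from the GC correction. The count of members with the lower response in MDA-MB-468 (1) became 2 under quantile rescaling, 2 with edgeR and 0 at a threshold of 0.01, and 1 to 2 when single libraries were left out, with KIF18A as the member gained and HMMR as the member lost. In low glucose 30 to 33 members were lower and 5 to 9 higher in MDA-MB-468. With the replicate block, 41 members were lower in MDA-MB-231, 14 higher and 7 lower in MDA-MB-468, and 40 had the higher and 1 the lower response. The replicate numbers did not pair the samples: deviations of same-numbered samples correlated between -0.04 and -0.00512 in MDA-MB-231 and between 0.0167 and 0.0319 in MDA-MB-468.

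Of the results for single members, 1045 kept direction and side of the threshold, 18 lost the call, 6 gained one and 13 changed sign. The changes of sign were in MDA-MB-468 values that did not pass: TOP2A at -0.0043 under quantile rescaling, CDC20 at -0.0293 under the GC correction, and KIF15 at -0.0169 under quantile rescaling, -0.0025 under TMM, -0.0057 with edgeR and -0.0085 with DESeq2. With single libraries left out, KIF15 ranged from -0.0258 to 0.0415 and NDC80 from -0.0029 to 0.0556. The causes were not tested. Depth limits HMMR in MDA-MB-231, which had between 67.1 and 101.8 normalized reads.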

Other observations

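S phase genes moved with the mitotic genes in MDA-MB-231. Of 27 genes of replication licensing, DNA synthesis and the G1/S transition, 26 fell there and 1 did not pass (9.37% of all tested genes were called lower), with the largest fall in CCNE2, the cyclin E2 gene (-0.78 on the log2 scale, SE 0.09, adjusted p 8.71e-06 by limma). In MDA-MB-468, 10 of the 27 rose and 6 fell (all genes 24.9% and 22.7%), from MCM5, a subunit of the replicative helicase, at 0.49 (SE 0.04, 5.91e-08) to the GINS subunit gene GINS4 at -0.46 (SE 0.06, 7.21e-06). The response was higher in MDA-MB-468 for 22 of the 27 (17.0% of all genes). In low glucose 22 of the 27 were higher in MDA-MB-468 (45.0% of all genes), led by PCNA, the sliding clamp of DNA polymerase (2.11, SE 0.03, 2.26e-20), whereas 33 of the 42 mitosis and spindle genes were lower there (40.4% of all genes).

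Inhibitors of cyclin-dependent kinases were mixed. Of the 5 tested in MDA-MB-231, where 9.37% of all genes were called lower and 5.71% higher, 3 fell, led by CDKN2C (-0.41, SE 0.04, limma adjusted p 3.72e-06), and CDKN1C rose (0.28, SE 0.08, 0.0199). That call was lost without low-glucose replicate 2 or 3 or high-glucose replicate 1 of MDA-MB-231, at a threshold of 0.01, and under the length correction with the replicate block, where 0 of the 5 rose. Of the 7 tested in MDA-MB-468, where 24.9% of all genes were called higher and 22.7% lower, 4 rose, led by CDKN1A, which encodes p21 (0.83, SE 0.06, 1.97e-08), and CDKN2D fell (-1.08, SE 0.07, 4.64e-09). The count of 1 fall became 2 without high-glucose replicate 4 of that line and under quantile rescaling, the GC correction, and the length correction with or without the replicate block. In low glucose 4 of the 7 were lower in MDA-MB-468 than in MDA-MB-231 and 3 were higher (40.4% and 45.0% of all tested genes). The farthest below was CDKN1A (-2.68, SE 0.06, limma adjusted p 1.15e-17), and the farthest above was CDKN2A (9.95). Of the 7, only 5 passed the filter on low values in MDA-MB-231, while all 7 passed it in MDA-MB-468. Genes that passed only through MDA-MB-468 were favored to be higher there by the filter itself, so the count of 3 carries no weight.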
